A study of Mus musculus with 4 samples.

Results

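The Gadd45 stress gene family has 3 members in the mouse, Gadd45a, Gadd45b and Gadd45g, and the genomic regions bound by the glucocorticoid receptor (GR) around these genes are described here in liver at ZT18. A region was assigned to a gene when the protein-coding transcription start site (TSS) nearest to its centre belonged to that gene in GENCODE M21. By this rule 45 of the 31343 regions of the Dex set and 11 of the 5883 regions of the Vehicle set were Gadd45 regions, 56 of 37226 over both sets, and the other regions belonged to the rest of 21992 protein-coding genes. The regions are in the data because the authors called them from the signal of the same livers. In addition, the family was selected on an earlier look at the same contrast, in which a Gadd45g region was among the largest rises. The differences between Dex and Vehicle are therefore given as a description, with no p-value for any Gadd45 region.

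GR ChIP-seq measures where the receptor sits on DNA, by sequencing the fragments that an antibody against it brings down. In the Dex group, mice were injected with 1 mg/kg dexamethasone, a synthetic GR agonist, and in the Vehicle group with the cyclodextrin carrier. Livers were taken 1 h after the injection, at the dark-phase time ZT18 (18 h after lights on), and there were 2 libraries per group. Both groups were labelled as male Hnf4afl/flAlbCre+/- mice of 6 to 8 weeks, in which the albumin promoter drives Cre recombinase in hepatocytes and would remove the floxed gene for the transcription factor HNF4A there. The study's methods describe C57BL/6 mice instead, so the genotype is not settled, and any deletion would be shared by both groups. The labels do not say that the libraries of a group came from separate animals, so spread between libraries may be technical.

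GADD45 proteins are small acidic nuclear proteins named for their induction by growth arrest and DNA damage. They have no known enzyme activity and act by binding other proteins. These include the kinase MAP3K4, which stands at the head of the p38 and JNK stress kinase cascades, the mitotic kinase CDK1, the replication clamp PCNA and the cell cycle inhibitor p21. They have also been linked to DNA excision repair and to active DNA demethylation. GR is a ligand-activated transcription factor that binds an inverted repeat of AGAACA with a spacer of 3 bases, called the glucocorticoid response element (GRE), and in liver chromatin it is often found near sites of other factors such as C/EBP.

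The 7 stretches below come from Gadd45 regions of the Dex set and are shown because they hold the region with the largest difference between Dex and Vehicle, the 4 matches to a GRE with up to 2 mismatches, and regions with the AP-1 and ATF/CREB matches discussed with the values. They are read from the plus strand of mm10 (GRCm38.p6, RefSeq) and are named by gene and by the distance of the region centre from that gene's TSS, with positive distances downstream. Capitals mark matches to the searched motifs: the single GRE arm AGAACA, GRE with up to 2 mismatches, C/EBP TTGCNNAA, AP-1 TGANTCA, ATF/CREB TGACGTCA and FOXO TGTTTAC, each on either strand. In a GRE with mismatches, the G and C of each arm had to be kept.
Gadd45g +19.5 kb (chr13:51866179-51866378): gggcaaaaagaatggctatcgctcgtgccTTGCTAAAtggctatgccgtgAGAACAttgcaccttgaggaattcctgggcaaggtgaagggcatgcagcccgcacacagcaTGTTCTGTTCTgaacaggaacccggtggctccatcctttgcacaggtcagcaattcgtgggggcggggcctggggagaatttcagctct
Gadd45g +24.6 kb (chr13:51871293-51871432): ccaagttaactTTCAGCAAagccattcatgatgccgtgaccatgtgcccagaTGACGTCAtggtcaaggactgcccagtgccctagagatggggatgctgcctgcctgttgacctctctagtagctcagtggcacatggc
Gadd45g +178.1 kb (chr13:52024937-52025016): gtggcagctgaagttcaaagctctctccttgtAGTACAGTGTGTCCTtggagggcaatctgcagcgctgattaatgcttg
Gadd45g +189.1 kb (chr13:52035730-52035809): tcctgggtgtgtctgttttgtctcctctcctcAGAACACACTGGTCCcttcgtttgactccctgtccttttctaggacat
Gadd45g +333.4 kb (chr13:52180121-52180240): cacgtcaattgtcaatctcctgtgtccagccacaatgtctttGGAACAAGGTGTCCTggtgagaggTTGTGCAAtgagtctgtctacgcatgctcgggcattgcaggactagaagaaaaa
Gadd45b +31.8 kb (chr10:80962339-80962418): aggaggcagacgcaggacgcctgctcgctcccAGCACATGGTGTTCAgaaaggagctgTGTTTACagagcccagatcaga
Gadd45a +22.8 kb (chr6:67014600-67014836): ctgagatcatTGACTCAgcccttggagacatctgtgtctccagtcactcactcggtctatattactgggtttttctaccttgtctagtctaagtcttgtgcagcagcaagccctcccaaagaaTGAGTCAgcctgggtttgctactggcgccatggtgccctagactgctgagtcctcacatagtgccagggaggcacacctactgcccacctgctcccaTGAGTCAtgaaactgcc
The Gadd45g +19.5 kb stretch had no GRE, but it held 3 GRE arms, 2 of which overlapped by 1 base within TGTTCTGTTCT, and a C/EBP match 66 bases before the centre. In the Gadd45g +333.4 kb stretch a GRE with 2 mismatches and a C/EBP match stood on either side of the region centre, at -10 and 11 bases. In the Gadd45a +22.8 kb stretch all capitals are AP-1 matches, and the narrower Vehicle region at this place (chr6:67014704-67015141) covered both TGAGTCA matches but not the TGACTCA match.

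The Dex libraries held 64169077 and 65097597 reads, against 91494606 and 29179899 in the Vehicle libraries, and 6.35% and 7.79% of Dex reads, against 1.04% and 1.35% of Vehicle reads, lay in the regions of each group's own set. The 45 Gadd45 regions of the Dex set had a median of 187 reads in either Dex library, with the lowest at 43 and 46. The 11 of the Vehicle set had medians of 192 and 129 reads in the Vehicle libraries, with the lowest at 91 and 30. These medians are over different regions and cannot be compared directly. Calling pooled ZT6 with ZT18 within each treatment, so whether a place is in the Vehicle set does not depend on ZT18 only. Places that are not in that set carry no Vehicle value here. All 8 hepatocyte marker genes searched had a Dex region, as had 6 of 8 endothelial and stellate markers, 3 of 6 cholangiocyte markers and 0 of 8 Kupffer cell and macrophage markers, beside 49.7% of protein-coding genes. A region marks bound chromatin in whole liver, and its cell of origin was not tested.

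Gadd45g was one of the genes with most GR regions in the Dex set. It had 30, a number reached by 9 genes in all (0.0409% of protein-coding genes). Gadd45a had 10 regions (459 genes with as many or more, 2.09%) and Gadd45b had 5 (1857 genes, 8.44%). A gene with at least 1 Dex region had a median of 2. The stretch of genome nearest to each TSS differed as well, at 369 kb for Gadd45g, 171 kb for Gadd45a and 40.3 kb for Gadd45b, where the median over protein-coding genes was 44.9 kb. Per 100 kb of that stretch the order was another one, with 12.4 regions at Gadd45b, 8.13 at Gadd45g and 5.86 at Gadd45a.

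**Figure D1:**
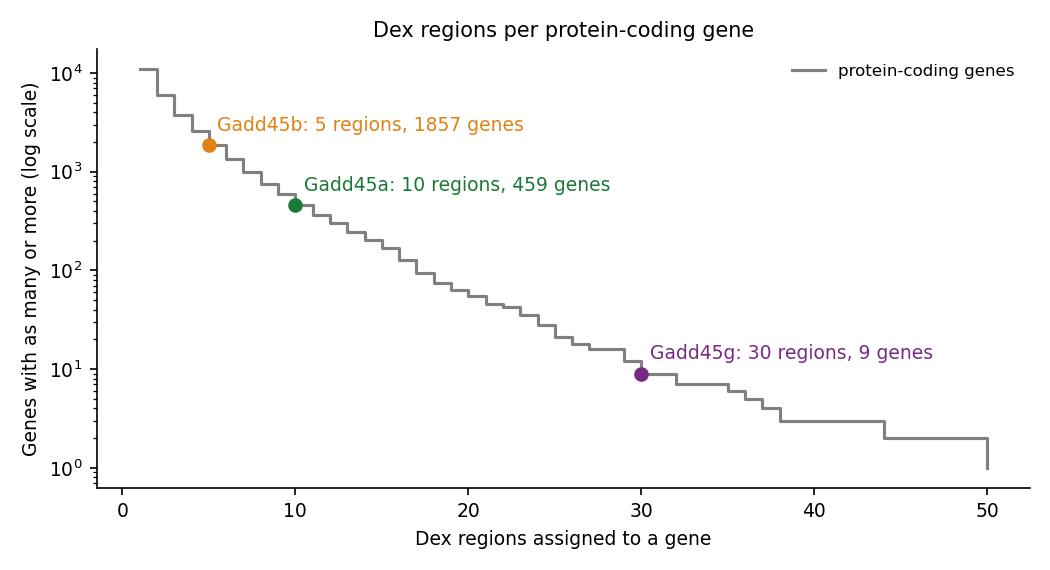
Number of Dex regions assigned to a gene (horizontal axis) against the number of protein-coding genes with as many or more (vertical axis, log scale), with the 3 Gadd45 genes as points on the curve. Gadd45g lies at 30 regions, where 9 genes remain, Gadd45a at 10 and Gadd45b at 5.

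The assignment rested on the annotation used. When the nearest TSS of any gene type was taken, noncoding transcripts claimed most regions, and 9 stayed with Gadd45g, 1 with Gadd45a and 1 with Gadd45b. The nearest TSS need not be that of the gene a region acts on. The Gadd45g locus (ENSMUSG00000021453.2, chr13:51846678-51848468, plus strand) is followed by a long gap, with the next protein-coding TSS downstream, that of Diras2, at 685 kb, and Sema4d at 52.9 kb upstream. Of its 30 regions, 29 lay downstream, 26 were intergenic, and 20 lay beyond 100 kb of the TSS.

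The Gadd45g regions fell into 5 clusters when gaps of over 20 kb were taken as breaks, a limit chosen after the data were seen. The first ran from -1.66 to 26.2 kb with 7 regions, the second from 51.0 to 64.9 kb with 3, and the third from 145 to 239 kb with 15. The fourth held 2 regions at 307 to 309 kb and the fifth 3 regions at 330 to 337 kb. At the gene itself 2 regions were found, one over the promoter (-1.66 kb) and one that overlapped the TSS, with its centre in an intron (0.215 kb). Of the distal regions, those at 175.6 and 333.4 kb overlapped promoters of noncoding transcripts.

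Gadd45a (ENSMUSG00000036390.8, chr6:67035096-67037457, minus strand) had a different layout, with 3 of its 10 regions over annotated promoters at the gene (at the TSS, 0.512 and 1.62 kb), 3 in introns of the neighbouring Gng12 and 4 intergenic. For the regions at 0.512 and 1.62 kb the closest TSS of any type was that of the overlapping noncoding transcript E230016M11Rik. Gng12 encodes a G protein gamma subunit. Gadd45b (ENSMUSG00000015312.9, chr10:80930073-80932204, plus strand) had 1 region over its promoter at -0.87 kb and 4 regions within 4.57 kb of each other, 28.4 to 33.0 kb downstream. These 4 lay in introns of Gng7, another G protein gamma subunit gene, whose own TSS was 67.4 kb from that of Gadd45b. Over the family, 7 of 45 regions (15.6%) were over promoters, against 29.8% of all Dex regions.

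**Figure D2:**
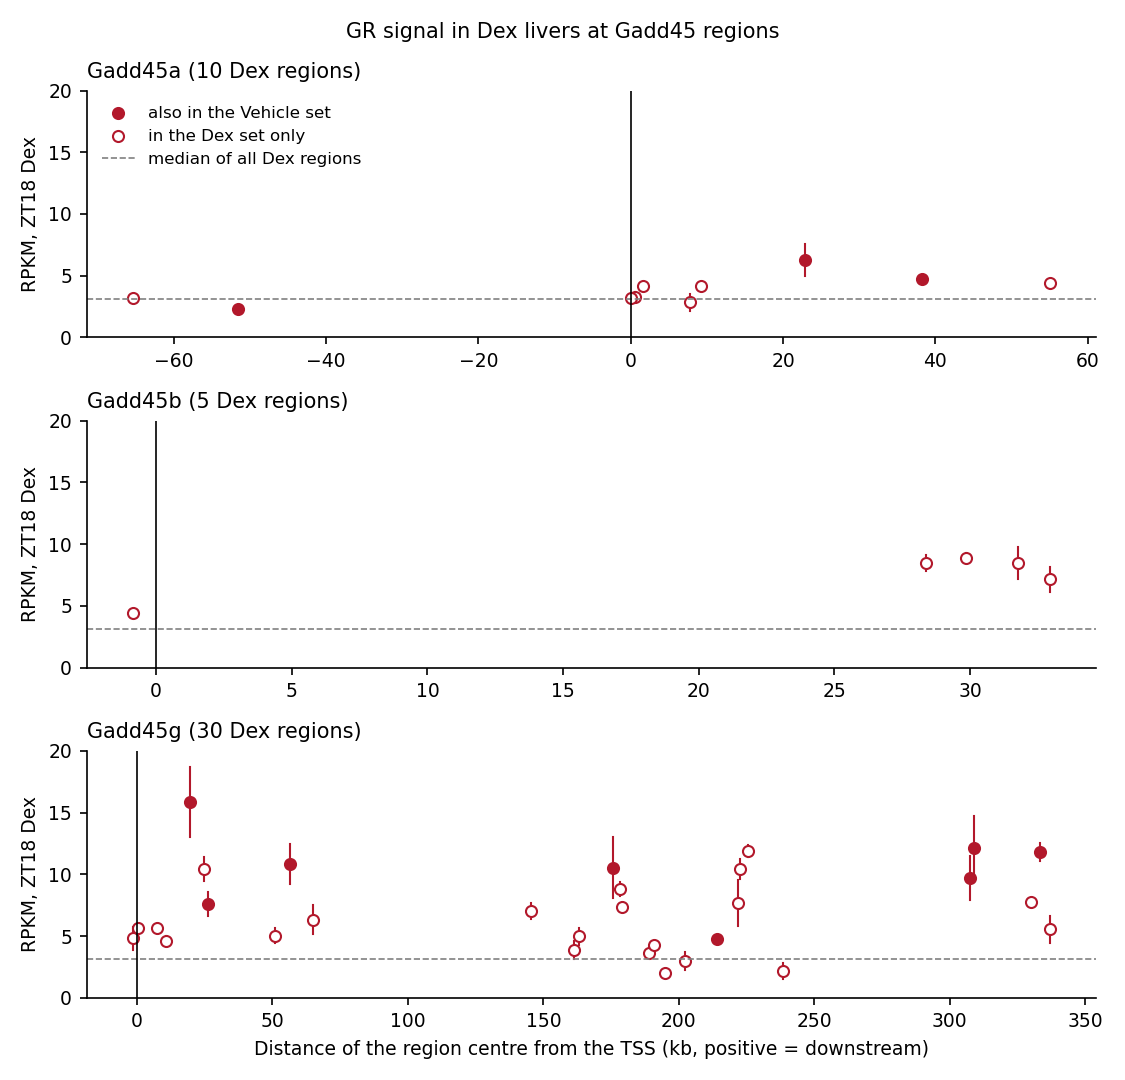
RPKM in ZT18 Dex livers (vertical axis) of each Gadd45 region by the distance of its centre from the TSS in kb (horizontal axis, a different range for each gene). Points are means of 2 Dex libraries, vertical lines join the 2 libraries, filled points are regions that also have a Vehicle region, and the dashed line is the median of all Dex regions (3.14 RPKM). The 5 Gadd45b regions are all open, and the highest point is Gadd45g +19.5 kb at 15.9 RPKM.

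In the Dex livers, the signal at Gadd45 regions was mostly above that of the median region. RPKM, the reads scaled by region length and library size, ran over the members at 2.05 to 15.9 as a mean of the 2 Dex libraries, with a median of 5.65, and 40 of 45 were at or above the median of the Dex set (3.14 RPKM). By gene these were 27 of 30 at Gadd45g, 8 of 10 at Gadd45a and 5 of 5 at Gadd45b. The top 10% of the Dex set began at 6.37 RPKM and held 19 of the 45. The gene medians were 8.47 RPKM at Gadd45b, 6.68 at Gadd45g and 3.71 at Gadd45a, and the ranges overlapped (4.39 to 8.88, 2.05 to 15.9 and 2.31 to 6.27). Dex replicate 2 was above Dex replicate 1 at 32 of 45 members, by a median ratio of 1.17, as it was at 75.0% of all Dex regions (median ratio 1.21).

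A Vehicle region was absent at 34 of the 45, namely 22 of Gadd45g, 7 of Gadd45a and all 5 of Gadd45b. Their median in Dex was 5.01 RPKM, against 9.71 RPKM for the 11 with a Vehicle region. Over all genes, Dex regions without a Vehicle region also had a median below that of the whole Dex set (3.02 against 3.14 RPKM). The share with a Vehicle region (24.4%) stood beside 18.3% over all Dex regions.

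At Gadd45b, the 4 regions inside Gng7 were close in level. The region at 28.4 kb had 7.83 and 9.15 RPKM in the 2 Dex libraries, and that at 29.8 kb had 8.45 and 9.32. The region at 31.8 kb, which holds a GRE with 2 mismatches and a FOXO match, had 7.19 and 9.75 RPKM, and that at 33.0 kb had 8.15 and 6.15. The 4 regions overlapped in level, except that both values at 33.0 kb lay below both at 29.8 kb. The promoter region at -0.87 kb lay below them, with 4.30 and 4.49 RPKM.

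Among Gadd45g regions without a Vehicle region, the strongest was at 225.7 kb, with 11.4 and 12.4 RPKM in the Dex libraries. Its neighbour at 222.4 kb had 9.60 and 11.3 RPKM. The region at 24.6 kb had 11.4 and 9.45 RPKM, so it overlapped in level with the region at 222.4 kb, and both lay below the region at 225.7 kb by a small margin. It was only 200 bp wide, and of the 45 it was the one with an ATF/CREB match (TGACGTCA), the element bound by cyclic AMP and stress-responsive factors. This single region is 2.22% of the 45, against 0.626% of all Dex regions in the 200 bp windows and 1.59% over whole regions. The region at 178.1 kb had 8.26 and 9.34 RPKM, and that at 330.1 kb had 8.01 and 7.60. The other 17 averaged 2.05 to 7.68 RPKM, among them the promoter region at -1.66 kb with 3.87 and 5.78 RPKM and the region at the TSS (0.215 kb) with 5.36 and 5.93.

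The Gadd45a regions without a Vehicle region lay lower, at 2.86 to 4.43 RPKM as means of the Dex libraries. The highest was at 55.1 kb in a Gng12 intron, with 4.18 and 4.68 RPKM in the Dex libraries. The region at 1.62 kb had 4.46 and 3.87 RPKM, and that at 9.26 kb had 4.07 and 4.24. These 3 overlapped in level. At 0.512 kb the values were 2.84 and 3.68 RPKM, and at the TSS 3.33 and 3.09, both close to the median of the Dex set. The remaining 2 averaged 2.86 and 3.20 RPKM.

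At 11 places a Dex region matched a Vehicle region one to one, 8 at Gadd45g and 3 at Gadd45a, and only there could the treatments be set against each other. Over all genes 5665 such pairs were fitted. The largest difference of the family was at Gadd45g +19.5 kb (chr13:51865820-51866736 in the Dex set), which had 13.1 and 18.7 RPKM in Dex, against 2.87 and 3.65 RPKM in Vehicle. The means were 15.9 ± 4.01 RPKM in Dex and 3.26 ± 0.550 RPKM in Vehicle (SD, n = 2 each). The lower Dex value was thus several times the higher Vehicle value. The log2 fold change was 2.30 ± 0.47 (SE), or 4.93-fold, the 4th of 5665 by size. Its size moved with the scaling, to a log2 fold change of 1.83 with TMM, 1.84 with DESeq2, 1.74 with reads per kb of shared regions as library size, 1.21 with the sum of reads in shared regions as library size and 3.42 without a correction for region width. In whole reads the region held 768 and 1117 in Dex over 916 bp, against 111 and 45 in Vehicle over 423 bp. Region widths and library totals both differed, so these reads cannot be compared directly.

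The remaining Gadd45g pairs differed less. Gadd45g +26.2 kb had 6.66 and 8.54 RPKM in Dex, against 2.98 and 4.71 RPKM in Vehicle (log2 fold change 0.99 ± 0.45). Gadd45g +175.6 kb had 8.07 and 13.03 RPKM in Dex, against 4.10 and 6.55 RPKM in Vehicle (1.00 ± 0.45). The Dex and Vehicle libraries did not overlap at either place, and the fold was near 2. Gadd45g +307.3 kb had 7.94 and 11.5 RPKM in Dex, against 3.60 and 7.76 RPKM in Vehicle (0.78 ± 0.44). Gadd45g +56.4 kb had 9.23 and 12.5 RPKM in Dex, against 4.26 and 8.97 RPKM in Vehicle (0.74 ± 0.45). At both, the lower Dex library was barely above the higher Vehicle library. Gadd45g +308.9 kb had 9.52 and 14.7 RPKM in Dex, against 6.77 and 8.90 RPKM in Vehicle (0.64 ± 0.45). Gadd45g +333.4 kb, the place with the highest mean Vehicle signal of the family, had 11.05 and 12.56 RPKM in Dex, against 7.34 and 10.8 RPKM in Vehicle (0.39 ± 0.44). These 2 were also free of overlap by a small margin. Gadd45g +213.9 kb stood apart, with 4.79 and 4.73 RPKM in Dex, against 3.83 and 11.2 RPKM in Vehicle (-0.63 ± 0.43). Both Dex values lay between the 2 Vehicle values there, and the sign was that of Vehicle replicate 2, without which the log2 fold change was 0.31.

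The Gadd45a pairs were lower in level. Gadd45a -51.6 kb had 2.42 and 2.20 RPKM in Dex, against 1.47 and 1.52 RPKM in Vehicle (log2 fold change 0.63 ± 0.33), with no overlap. Gadd45a +22.8 kb had 5.002 and 7.531 RPKM in Dex, against 3.70 and 6.04 RPKM in Vehicle (0.39 ± 0.45). Gadd45a +38.3 kb had 4.48 and 5.03 RPKM in Dex, against 2.73 and 6.20 RPKM in Vehicle (0.15 ± 0.34). At the last 2 places the libraries of the groups overlapped. At Gadd45a +38.3 kb the log2 fold change was -0.38 without Vehicle replicate 1, 0.80 without Vehicle replicate 2 and -0.25 with TMM scaling, so its sign was not settled, and at Gadd45a +22.8 kb it was -0.055 with TMM scaling. The Gadd45a +22.8 kb region was 1642 bp wide in the Dex set and 437 bp in the Vehicle set, the largest ratio of widths in the family (3.76, against a median of 1.45 over all pairs). Without a correction for width its log2 fold change was 2.30.

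**Figure D3:**
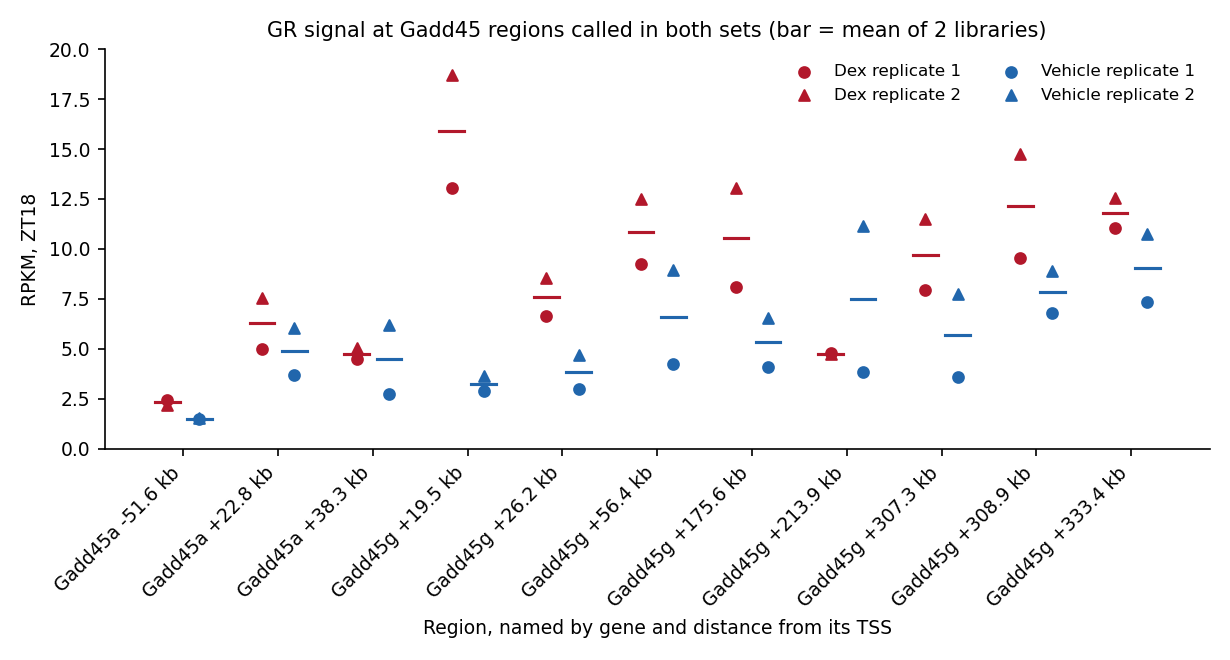
RPKM (vertical axis) in each Dex (red) and Vehicle (blue) library at the 11 Gadd45 regions present in both sets, ordered by gene and distance from the TSS. Circles are replicate 1, triangles replicate 2 and bars the mean of 2 libraries. At Gadd45g +19.5 kb the Dex values (13.1 and 18.7) are far above the Vehicle values (2.87 and 3.65), and at Gadd45g +213.9 kb both Dex values lie between the Vehicle values.

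Both Dex libraries were above both Vehicle libraries at 8 of the 11 places, where the share over all pairs was 51.5%, and below both at 0 of 11, where it was 4.78%. In the edgeR quasi-likelihood fit over all pairs, 1 of the 11 (Gadd45g +19.5 kb) passed the adjusted threshold of 0.05 as higher in Dex, and 10.8% of all pairs did (612 of 5665, with 1 lower). Nothing is read from these counts, and the pass of Gadd45g +19.5 kb is no test of it, because the contrast was known when the genes were chosen. The log2 fold change was above 0 at 10 of 11 as fitted, at 7 of 11 with TMM scaling, with DESeq2 or with reads per kb of shared regions as library size, and at 1 of 11 when the library size was the sum of reads in shared regions. The median was 0.64 over the 11, 0.76 over the 8 Gadd45g pairs and 0.39 over the 3 Gadd45a pairs, beside 0.43 over all pairs. Relative to that median of 0.43, Gadd45g +19.5 kb was higher by 1.87, Gadd45g +175.6 kb by 0.57 and Gadd45g +26.2 kb by 0.56, and Gadd45g +213.9 kb was at -1.06. Without Dex replicate 2, Vehicle replicate 1 or Vehicle replicate 2 the log2 fold change at Gadd45g +19.5 kb was 2.02, 2.12 and 2.47. Without Dex replicate 1 it was 2.54. Whether that region passed depended on which libraries were used.

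**Figure D4:**
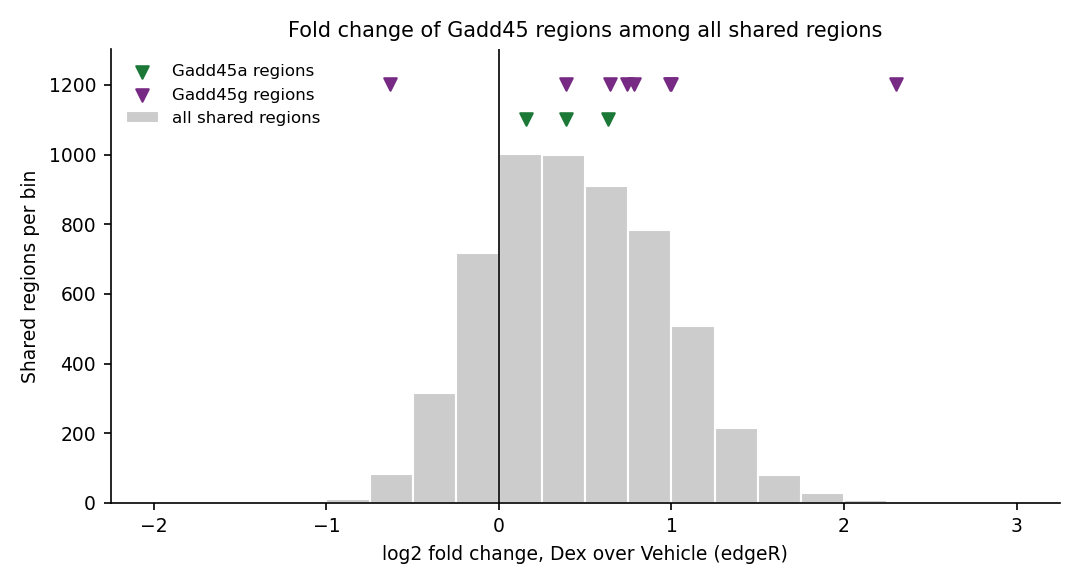
Distribution of the log2 fold change of Dex over Vehicle (horizontal axis) over the 5665 shared regions (grey bars, regions per bin of 0.25), with the 3 Gadd45a and 8 Gadd45g pairs as triangles above it. Gadd45g +19.5 kb lies at 2.30, at the far right of the bars, and the other pairs lie between -0.63 and 1.00.

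The shared regions of other genes closest in pattern to Gadd45g +19.5 kb, by Euclidean distance of log2 RPKM over the 4 libraries, were nearest to Lurap1l (distance 0.24), Bcl2l1 (0.31), which encodes an inhibitor of apoptosis, and Rbx1 (0.45), which encodes a ubiquitin ligase subunit. The Bcl2l1 region, for example, had 11.2 and 16.2 RPKM in Dex, against 2.98 and 3.69 RPKM in Vehicle. For Gadd45a +22.8 kb they were nearest to Kank1 (0.071), Olig2 (0.095) and Setd4 (0.11).

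Sequence matches were searched in 200 bp about the centre of each region, and shares are over 45 Gadd45 and 31298 Dex regions with sequence. No exact GRE (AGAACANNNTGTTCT) was found in the 45 Gadd45 regions, and one was rare among all Dex regions (0.0575%). With up to 2 mismatches a GRE stood in 2 of 45 (4.44%, against 2.71% of all Dex regions), Gadd45g +178.1 kb and +333.4 kb, and over whole regions in 4 of 45 (8.89%, against 5.23%), adding Gadd45g +189.1 kb and Gadd45b +31.8 kb. The GRE arm occurred in 11 of 45 (24.4%, against 19.2%). No Gadd45a region held a GRE with up to 2 mismatches. The counts with mismatches required the G and C of each arm, so sites with a change at those bases were not counted.

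After the GRE arm, C/EBP matches were the most frequent in the windows, in 8 of 45 (17.8%, against 13.1% of all Dex regions). Over whole regions they were in 21 of 45 (46.7%, against 28.5%) and the GRE arm in 19 of 45 (42.2%, against 41.0%). C/EBP proteins are transcription factors abundant in hepatocytes. The windows with a match included Gadd45g +19.5, +24.6 and +333.4 kb, Gadd45b +28.4 kb and the region at the Gadd45a TSS. AP-1 matches, bound by FOS and JUN dimers, were in 2 of 45 windows (4.44%, against 6.09%) and in 7 of 45 whole regions (15.6%, against 16.0%), of which 4 were among the 10 of Gadd45a. The 2 regions with an HNF4A match (CAAAGTCCA) over their whole length (4.44%, against 3.06%) were both of Gadd45a. FOXO matches were in 3 of 45 windows (6.67%, against 4.32%), an E-box in 2 (4.44%, against 4.34%), a STAT match TTCNNNGAA in 1 (2.22%, against 6.68%), a D-box TTANNTAA in 1 (2.22%, against 3.65%) and an NF-kB match in 0 (against 1.01%). The E-box searched was CACGTG. GC content was 51.5% at the median of the 45 and 51.0% over the Dex set.

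**Figure D5:**
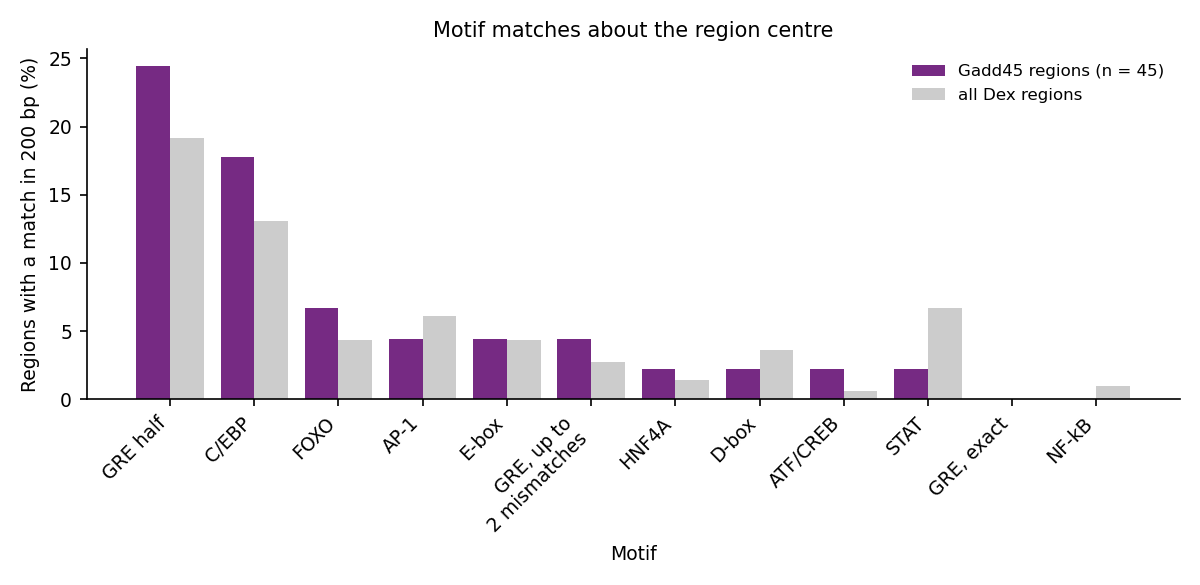
Share of regions with at least 1 motif match in 200 bp about the centre (vertical axis, percent) for the 45 Gadd45 regions (purple) and all Dex regions (grey), by motif (horizontal axis). With 45 regions, 1 region is 2.22%, and most bars of the family stand for 1 to 3 regions.

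The genes around the GADD45 proteins in their pathway were described from lists chosen with earlier results of these data known, by the region with the highest Dex signal of each gene. As background for their counts, 49.7% of protein-coding genes had a Dex region and 18.2% a Vehicle region, and 10.8% of all pairs were called higher in Dex. Of 16 genes for binding partners and associated factors, 13 had a Dex region and 7 a Vehicle region. Of their 10 shared regions 3 were called higher in Dex, at Cdk1, Rxra and Ppara. The strongest was at Rxra, the gene for a nuclear receptor that pairs with many others, with 20.6 and 35.1 RPKM in Dex, against 11.1 and 13.2 RPKM in Vehicle (log2 fold change 1.196 ± 0.419, adjusted p = 0.0446). At Cdk1 the values were 5.52 and 6.74 RPKM in Dex, against 2.29 and 2.47 RPKM in Vehicle (1.36 ± 0.44), a region named after its values were seen. Cdkn1a, which encodes p21, had 9.46 and 13.2 RPKM in Dex, against 7.51 and 11.9 RPKM in Vehicle, and did not pass. Map3k4 had 1 Dex region of 2.14 ± 0.129 RPKM (SD, n = 2) and no Vehicle region.

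Of 14 genes of the p38 and JNK cascades, 12 had a Dex region and 5 a Vehicle region, and 1 of 9 shared regions was called higher. It was at Map2k6, the gene for a p38-activating kinase, with 16.5 and 22.9 RPKM in Dex, against 4.34 and 6.42 RPKM in Vehicle (log2 fold change 1.88 ± 0.46, adjusted p = 0.00448). Mapk13 had 17.0 and 20.3 RPKM in Dex, against 6.44 and 13.4 RPKM in Vehicle (0.92 ± 0.43), and did not pass. Mapk14, which encodes p38 alpha, had 9.06 and 12.0 RPKM in Dex, against 4.15 and 10.9 RPKM in Vehicle. Mapk14 did not pass either (0.51 ± 0.45). Of 8 genes for MAP kinase phosphatases, which differ in the MAP kinases they switch off, 6 had a Dex region and 4 a Vehicle region, with 1 of 8 shared regions called higher, at Dusp6, whose product acts mainly on ERK. The strongest Dusp1 region, at 12.3 and 10.3 RPKM in Dex, was outside the Vehicle set. Dusp1 also had 2 shared regions, of which 0 were called higher.

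Of 18 genes for upstream regulators of the family, 17 had a Dex region and 8 a Vehicle region. Of their 30 shared regions 3 (beside 10.8% of all pairs) were called higher, 1 each at Foxo1, Myc and Egr1. The call at Egr1 was at its strongest region. Those at Foxo1 and Myc, with 9 and 11 shared regions, were not. Foxo1 and Myc were among the genes with many regions, 27 and 32, beside 30 at Gadd45g. The strongest was at Foxo3, with 20.7 and 24.4 RPKM in Dex, against 11.1 and 16.1 RPKM in Vehicle (log2 fold change 0.73 ± 0.43), which did not pass. Of 24 other stress and DNA damage response genes, 20 had a Dex region and 9 a Vehicle region, with 3 of 15 shared regions called higher. Of these, 1 was at Sesn1 and 2 were at Trp53inp1, a p53 target like Gadd45a. The strongest Trp53inp1 region had 16.6 and 20.7 RPKM in Dex, against 2.77 and 3.06 RPKM in Vehicle (2.68 ± 0.48, adjusted p = 6.51e-05). The strongest region of the stress list was at Ddit4, with means of 21.8 RPKM in Dex and 11.15 RPKM in Vehicle. The Ddit4 region did not pass (log2 fold change 0.98 ± 0.43). Of the 72 shared regions in these 5 lists, edgeR called 11 higher, beside 10.8% of all pairs, and 0 lower, with 0 lower at an unadjusted p under 0.05 as well. The split depended on the scaling and the libraries, with 9 higher and 0 lower under TMM, 10 and 0 under DESeq2, 6 and 0 with reads per kb of shared regions and 2 and 25 with the sum of reads in shared regions as library size. Without Dex replicate 2 and without Vehicle replicate 1 edgeR called 0 of the 72 (9 higher at an unadjusted p under 0.05 in each case), and 5 were called higher without Dex replicate 1 and 2 without Vehicle replicate 2. Of the named calls, that at Rxra was lost in edgeR under TMM (adjusted p = 0.0872). It was also lost in edgeR with reads per kb (0.107) and the sum of reads (0.762) as library size. Under DESeq2 it barely passed (adjusted p = 0.04975). The call at Cdk1 was lost with the sum of reads. Those at Map2k6 and Trp53inp1 were kept under the 4 scalings. With the replicate number as a block 41 were called higher. The medians of the log2 fold change over the shared regions were 0.38 for the partners, 0.86 for the p38 and JNK cascades, 0.83 for the phosphatases, 0.65 for the regulators and 0.47 for the stress genes, beside 0.64 for the Gadd45 regions and 0.43 over all pairs.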

How the data were processed

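GR ChIP-seq was measured in whole liver, with 2 ZT18 Dex and 2 ZT18 Vehicle libraries grouped by their titles. The authors aligned paired reads to mm10 with Bowtie 1.1.0, sorted them with SAMtools 1.2, called regions with MACS2 2.1.1 across ZT6 and ZT18 for each treatment, and removed blacklisted regions. They deposited, for each region and library, read counts (whole reads) and RPKM, which is those reads divided by region length and library size. Library totals follow from the pair. Not used here were 4 ZT6 tables (20 value columns), which hold other samples. The authors' score and scaled columns were not used either. Spike-in chromatin was added. The sources used here give no factor for it and do not say whether library totals include its reads, so a shift of all regions between Dex and Vehicle cannot be settled and every fold is relative to the library totals. Several immunoprecipitations were pooled for each library.

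Gene starts came from GENCODE M21, and a promoter spanned 2000 bp before any TSS and 200 bp after it. Coordinates are as in the deposited tables. Dex and Vehicle regions sharing 1 bp or more were paired one to one (bedtools 2.31.1). Pairs with 10 reads or more in 2 libraries entered edgeR 4.0.16 in R 4.3.3, a quasi-likelihood test with library total and region width in the offset and without composition scaling, and p-values were adjusted by Benjamini and Hochberg (threshold 0.05). The dispersion common to all pairs was 0.0529, and edgeR set infinite prior degrees of freedom, which means that a region's SE and p-value rest on the trend over regions and not on its own replicates. Tested on simulated data with 5665 regions, the fit called 25% of those changed 2-fold, 100% of those changed 4-fold and 3 of 5465 left as they were. The simulation gave all regions the same dispersion, used the known library totals and raised 100 regions at each fold. It held no shift of all regions, so it does not bear on the choice of scaling. At an unadjusted p under 0.05, 1619 pairs were higher and 23 lower. Low read counts limit the precision of single regions.

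The members and lists were chosen with earlier results of these data known. Named were all Gadd45 regions in both sets, the 5 strongest of each gene outside the Vehicle set and the 3 regions most alike. From each list up to 3 genes by Dex signal were named. Cdk1, Map3k4, Egr1, Sesn1 and regions named for a motif were chosen after their values were seen. Alternatives were DESeq2 1.42.0, TMM, shared-region scaling, leaving out a library, count minimums, a replicate block, a 50% overlap, no width correction, and other assignment and motif rules.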

Additional observations from a re-analysis of the deposited data

How the results depend on the processing

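The 612 pairs called higher in Dex over all genes and the 1 called lower became 344 and 95 with TMM, 265 and 28 with DESeq2 and 60 and 2869 when library size was the sum of reads in shared regions, with medians over all pairs of -0.034, -0.024 and -0.66 in place of 0.43. The median over the 11 Gadd45 pairs, 0.64 as reported, was 0.17, 0.18 and -0.45 in the same order. That sum does not allow for region width, so reads per kb of shared regions were added after seeing the data, giving 241 and 116 calls and medians of -0.12 over all pairs and 0.089 over the Gadd45 pairs. Without width correction 3886 pairs were called higher, 12 lower and 6 of the Gadd45 pairs higher, with a median of 1.09 over all pairs. Among pairs of like width, also added after seeing the data, 242 were called higher and 0 lower, and 0 of the 4 Gadd45 pairs left, which do not include +19.5 kb. The cause of these differences was not tested further.

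With 1 library left out, in which case the lone library is taken to vary like the others, 1 to 181 pairs were called higher, 0 to 18 lower and 0 to 1 Gadd45 pairs higher, and the Gadd45 median ran over 0.32 to 0.92. With the replicate number as a block (replicate block), 2121 pairs were called higher, 27 lower and 6 Gadd45 pairs higher. Across the shared regions, the replicate differences of Dex and Vehicle correlated at 0.078. With only 2 libraries per group, this cannot tell whether libraries of the same number were handled together. The count minimums and the 50% overlap changed no call. The nearest TSS of any type left 1, 1 and 9 regions with Gadd45a, Gadd45b and Gadd45g, a limit of 100 kb left 10 with Gadd45g, and Gadd45 regions with a GRE numbered 2 with up to 2 mismatches and 0 as reported. Depth limits the regions with few reads, and the lowest Gadd45 region held 30, in Vehicle replicate 2.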
